A study of Mus musculus with 4 samples.

Results

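The genes described here encode enzymes that conjugate foreign and endogenous compounds or cleave their esters: the glutathione transferases (Gst and Mgst), the carboxylesterases (Ces), the UDP-glucuronosyltransferases (Ugt) and the sulfotransferases (Sult). They were chosen by gene symbol, with earlier results of these data known, and with 1 probe set per gene, the one with the highest mean level. This gave 65 genes of the 19938 that have a probe set with a single symbol. Of these, 22 were glutathione transferases, 3 of them microsomal, 16 were carboxylesterases, 11 were UDP-glucuronosyltransferases and 16 were sulfotransferases. A further 8 probe sets carry several such symbols each and were not counted as members.

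As background, these families carry out much of phase II metabolism. Glutathione transferases join glutathione to electrophiles and lipid peroxides, UDP-glucuronosyltransferases add a sugar acid and sulfotransferases a sulfate group, and the products are carried out of the cell by transporters of the ABC family. Carboxylesterases hydrolyse esters and amides, among them lipid esters and several prodrugs. The families are best known from liver and gut, and glutathione transferases are also common in tumor cells.

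The study generated 4 clonal lines from a single mammary tumor of a female mouse of strain FVB Tg MMTV/neu (FVB/N in the study's methods), in which a mammary tumor virus promoter drives a rat ErbB2 (neu) transgene, so all groups share strain, tumor and transgene. The mesenchymal-like lines M1 and M2 came from cells sorted for low neu and low CD24 and grew in MEGM, a medium for mammary epithelium, with 2% serum, hydrocortisone, insulin, epidermal growth factor and pituitary extract. The epithelial lines E1 and E2 came from cells sorted for high neu and high CD24 and grew in RPMI with 20% serum, so the effects of type and of medium cannot be told apart. M1 formed no tumor in the mammary fat pad, whereas M2, E1 and E2 did. Each line is 1 clone measured on 1 array, nothing in the labels says that a line was grown more than once, and p-values therefore measure the spread between these clones. With so few arrays, the number of arrays limits how precise any value is.

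The values are log2 expression levels from Affymetrix mouse gene arrays. The array medians lay between 6.75 and 6.85. Olfactory receptor probe sets, for genes that mammary cells are not known to use, served as a guide to low signal. Their 95th percentile was 6.20 in M1 and 6.27 in M2, against 6.17 in E1 and 6.28 in E2, and a level higher than this is called above the guide. By limma, 5 of 8 mesenchymal markers were called higher in M1 and M2 and 5 of 10 epithelial markers lower, among them Epcam and Cdh1. The keratins Krt8 and Krt18 were at 13.1 or more in all lines and, like Krt19 and fibronectin (Fn1), differed by at most 0.28 between the means of the types. Cd24a, the gene of a sorting marker, had levels of 12.39 and 12.53 in M1 and M2, against 11.61 and 12.15 in E1 and E2. Of 8 hepatocyte markers, Apoa1 alone was above the guide, at 7.04 to 7.25 over the lines, and albumin (Alb) was at 4.69 to 4.75. Of 8 leukocyte and macrophage markers, 3 were above the guide in some line. Lyz2 was at 8.91 in M1 and 6.57 in M2 against 5.08 in E1 and 5.65 in E2. Cd68 was above the guide in all lines, at 10.595 in M1 and 11.603 in M2 against 10.657 in E1 and 8.772 in E2. Cd3e was even at 6.62 to 6.895 over the lines. The summed log2 level of the 8 markers was 54.5 in M1 and 53.1 in M2, against 50.5 in E1 and 49.97 in E2. The pan-leukocyte marker Ptprc was under the guide in all lines. limma called 0 of the 8 in either comparison, with 0 at an unadjusted p under 0.05 between the types and 1 for M1 against the other lines. Of 6 endothelial markers, 3 were above the guide in some line, while Pecam1 and Kdr were under it in all lines. Cdh5 was at 7.58 in M1 and 6.72 in M2 against 5.99 in E1 and 6.15 in E2. Tie1 was even at 6.32 to 6.44 over the lines, and Vwf at 6.83 to 7.02. Of 4 adipocyte markers, 2 were above the guide in some line, while Adipoq was under it in all lines. Fabp4 was at 7.20 in M1 and 10.77 in M2 against 5.26 in E1 and 5.50 in E2. Plin1 was even at 6.73 to 6.77 over the lines. limma called 0 of these 10 genes in either comparison, with 2 at an unadjusted p under 0.05 between the types and 1 for M1. The part of these cell types in the results was not tested.

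The families divided by their level above the guide. Of the 65 genes, 34 were above the guide in at least 1 line, 20 of them in all 4 lines, and 31 (47.7%) in no line. Of all 23410 probe sets tested, 16756 were above it in at least 1 line, 14699 of them in all 4, and 6654 in no line. The glutathione transferases had 20 of 22 genes above the guide in some line and 17 in all lines. The carboxylesterases had 10 of 16 in some line and 2 in all, the sulfotransferases 3 of 16 and 1, and the UDP-glucuronosyltransferases 1 of 11 and 0. The highest line was at least 4-fold above the lowest in 11 genes, 16.9% of the members against 7.06% of all 23410 probe sets tested. Of these, 7 were glutathione transferases, 2 were carboxylesterases and 1 each belonged to the other families. In bulk cultures of this kind, fewer cells with a transcript and less of it per cell cannot be told apart.

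**Figure D1:**
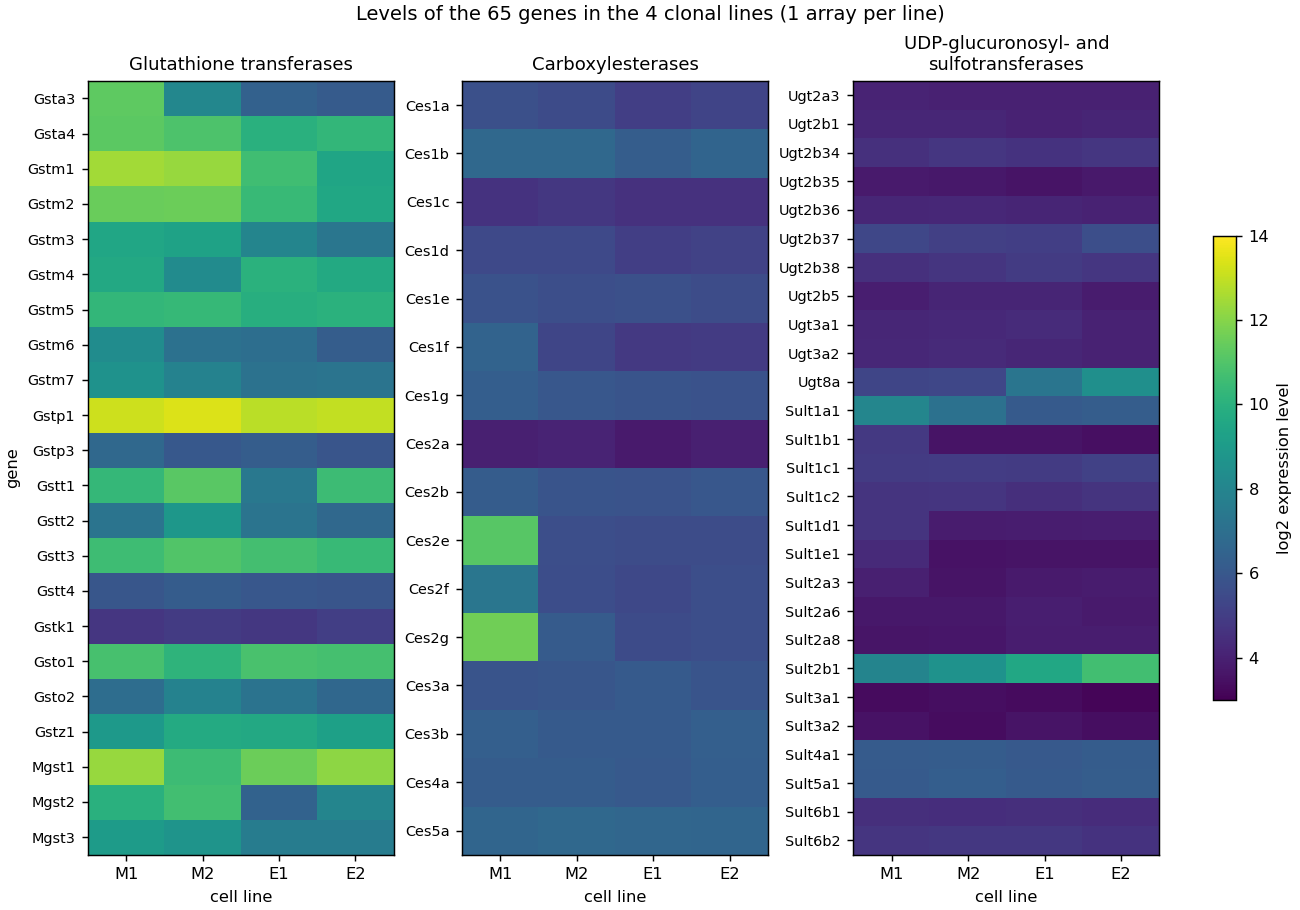
Colours give the log2 expression level of the 65 genes (rows) in M1, M2, E1 and E2 (columns, 1 array per line), by family. Ces2e and Ces2g stand out in M1 alone, Mgst2 and Gstm1 are higher in M1 and M2, and most Ugt and Sult genes lie under the olfactory receptor guide of 6.17 to 6.28.

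With M1 and M2 set against E1 and E2, the members at least 2-fold apart without overlap were glutathione transferases, higher in M1 and M2, and Ugt8a, which was lower. The difference of means was also large for Ces2g (3.31) and Ces2e (2.85), which were high in M1 alone. By limma with Benjamini-Hochberg adjustment over all probe sets tested, 1 of 65 members was higher in M1 and M2 (1.72% of all probe sets were called higher) and 0 were lower (2.02% were called lower). At an unadjusted p under 0.05 there were 14 members, against 4203 of the 23410 probe sets. Both M1 and M2 were at least 2-fold above both E1 and E2 in 6 members, 9.23% against 2.75% of all probe sets, and at least 2-fold below in 1 member, 1.54% against 2.71%. The 6 were Gsta3, Gstm1, Gstm2, Gstm3, Mgst2 and Mgst3, all of them glutathione transferases, and the 1 was Ugt8a. The median difference over the members was 0.13 on the log2 scale, beside 0.00 over all probe sets. Over the 22 glutathione transferases the median was 0.69, and the median size of the difference between types was 0.91, against 0.68 between M1 and M2 and 0.33 between E2 and E1.

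The microsomal glutathione transferases are membrane enzymes that reduce lipid hydroperoxides, and some of them make leukotrienes. Mgst3, the gene that passed the test, had log2 levels of 9.02 in M1 and 8.70 in M2, against 7.61 in both E1 and E2. The types did not overlap, and each pair of lines lay close together. Mgst3 was 2.37-fold higher in M1 and M2 (log2 difference 1.25, SE 0.15, 95% interval 0.82 to 1.67, limma adjusted p = 0.0402). This call was lost without E1 or without E2, when limma called 0 of all probe sets and 8 and 9 members had an unadjusted p under 0.05. It was also lost with each array centred on its median, with either floor on low values, with trend and robust eBayes, with a replicate block (limma adjusted p = 0.117) and with all probe sets of the file tested. Its difference stayed between 1.09 and 1.41, and its adjusted p ranged between 0.0176 and 0.269 over the alternatives.

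Mgst2, which can join glutathione to a leukotriene precursor, was at 9.97 in M1 and 10.66 in M2, against 6.44 in E1 and 8.004 in E2. Both mesenchymal-like lines were above both epithelial lines, and E1 lay at least 2-fold below every other line. The log2 difference was 3.09 (SE 0.62), which did not pass (limma adjusted p = 0.105). Mgst1, an enzyme of the endoplasmic reticulum and the outer mitochondrial membrane, was at 12.32 in M1 and 10.55 in M2, against 11.51 and 12.13 in E1 and E2. Here the types overlapped, with M1 the highest line and M2 the lowest, and the log2 difference of -0.39 did not pass (limma adjusted p = 0.862).

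The alpha class detoxifies products of lipid peroxidation and, in the mouse, the epoxide of aflatoxin. Gsta3 was at 11.26 in M1 and 8.11 in M2, against 6.42 in E1 and 6.14 in E2. Its levels were graded, with M1 far above M2 and M2 above both epithelial lines, and E2 under the guide. The difference between the types was 3.40 (SE 1.13, limma adjusted p = 0.247). It was 1.83 without M1 and 4.97 without M2. In those fits 1 mesenchymal-like array was left and the distance of M1 from M2 no longer entered the spread, so they cannot test this difference. The difference of M1 from the mean of the 3 other lines was 4.37 (SE 0.94, limma adjusted p = 0.513). Gsta4, which conjugates hydroxynonenal, was at 11.24 in M1 and 10.92 in M2, against 9.99 in E1 and 10.30 in E2. The types did not overlap, but the difference of 0.93 (SE 0.19) did not pass either (limma adjusted p = 0.105).

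The mu class is a row of neighbouring genes on mouse chromosome 3, in the order Gstm5, Gstm7, Gstm6, Gstm3, Gstm2, Gstm1 and Gstm4. By limma, 0 of the 7 genes passed, with 5 at an unadjusted p under 0.05. Gstm1 was at 12.47 and 12.28 in M1 and M2, against 10.64 in E1 and 9.49 in E2. Gstm2 was at 11.48 and 11.51 in M1 and M2, against 10.42 in E1 and 9.56 in E2. Gstm3 was at 9.50 and 9.33 in M1 and M2, against 8.01 in E1 and 7.33 in E2. In all 3 genes M1 and M2 were nearly equal, both were above both epithelial lines, and E2 was the lowest line. The log2 differences were 2.32 (SE 0.43, limma adjusted p = 0.0896) for Gstm1, 1.51 (SE 0.32, limma adjusted p = 0.118) for Gstm2 and 1.75 (SE 0.27, limma adjusted p = 0.0638) for Gstm3. Gstm3 passed with quantile normalization (limma adjusted p = 0.0479), but its second probe set disagreed, with 6.82 and 6.45 in M1 and M2 against 6.55 and 6.49 in E1 and E2.

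Among the other mu genes, Gstm6, Gstm7 and, by less, Gstm5 were higher in both M1 and M2, and Gstm4 was lower. Gstm6 was at 8.37 in M1 and 7.09 in M2, against 6.97 in E1 and 6.23 in E2. Gstm7, named here after its values were seen, was at 8.60 in M1 and 7.87 in M2, against 7.13 in E1 and 7.25 in E2. Both were highest in M1, with M2 next. Gstm5 was nearly even, at 10.27 and 10.37 in M1 and M2 against 9.88 and 10.01 in E1 and E2, a log2 difference of 0.38. Gstm4, at the end of the row, was at 9.64 in M1 and 8.30 in M2, against 10.01 in E1 and 9.69 in E2. M2 was at least 2-fold below every other line there, and the log2 difference of -0.88 (SE 0.50) did not pass (limma adjusted p = 0.498). Without M1 it was -1.55. The mu genes are close relatives in sequence, so a probe set of one may also read transcripts of another.

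**Figure D2:**
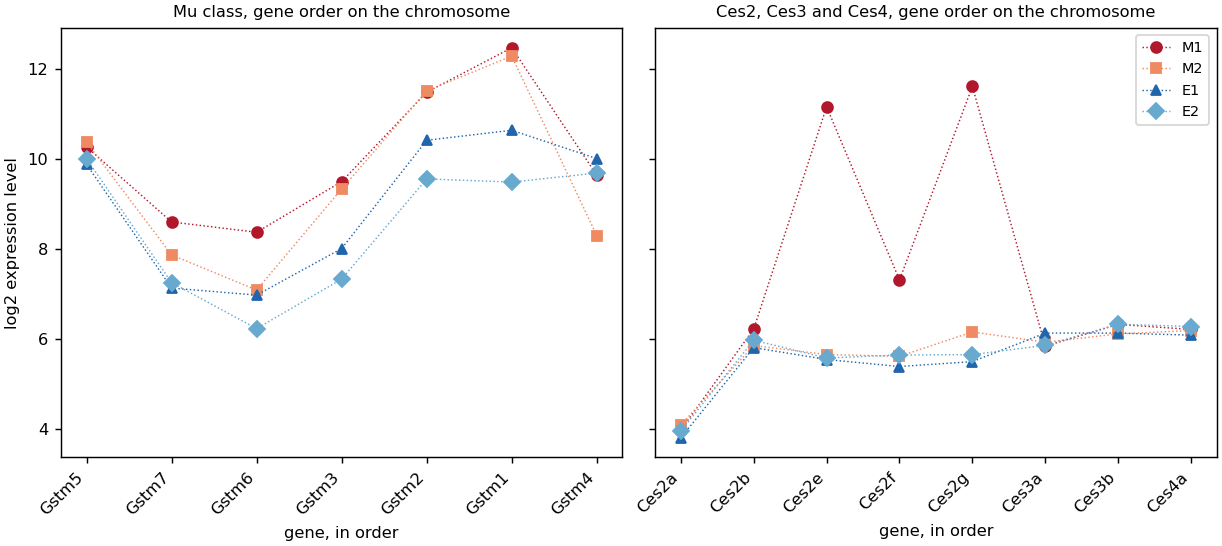
Points give log2 expression levels per line for the mu class (left) and for Ces2, Ces3 and Ces4 genes (right), with genes in their order on the chromosome and evenly spaced; dotted lines only join the points of a line. M1 and M2 are above E1 and E2 at Gstm1, Gstm2 and Gstm3, M2 is lowest at Gstm4, and M1 is far above the other lines at Ces2e (11.16 against at most 5.65) and Ces2g (11.61 against at most 6.16).

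The theta, pi, omega, zeta and kappa classes held smaller or mixed differences, with 0 of 10 genes called by limma in either direction and 0 at an unadjusted p under 0.05. Gstt1, which acts on small halogenated compounds, was at 10.32 in M1 and 11.18 in M2, against 7.40 in E1 and 10.52 in E2. E1 alone was low, 8.68-fold below E2, so the types overlapped. Gstt2 was at 7.25 in M1 and 8.81 in M2, against 7.22 in E1 and 6.71 in E2. There M2 alone was high, and it was the only member in which M2 was at least 2-fold above every other line. Without M1 its difference was 1.85, with M2 the only mesenchymal-like array. Their neighbour Gstt3 stayed within 10.43 to 11.002 over the 4 lines.

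Gstp1, the pi class enzyme often studied in drug resistance, was at 13.17 in M1 and 13.42 in M2, against 12.88 in E1 and 13.00 in E2. The log2 difference was 0.36 (SE 0.14, limma adjusted p = 0.322). Gsto1, of the omega class of thiol transferases, ranged between 10.15 in M2 and 10.85 in E1, with a log2 difference of -0.32 (limma adjusted p = 0.651). Gstz1, an isomerase of tyrosine breakdown, was at 8.90 in M1 and 9.74 in M2, against 9.65 in E1 and 9.25 in E2. All 4 lines were above the guide for these 3 genes and the types overlapped for Gsto1 and Gstz1. Gstk1 was under the guide in every line, at 4.74 to 5.02.

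**Figure D3:**
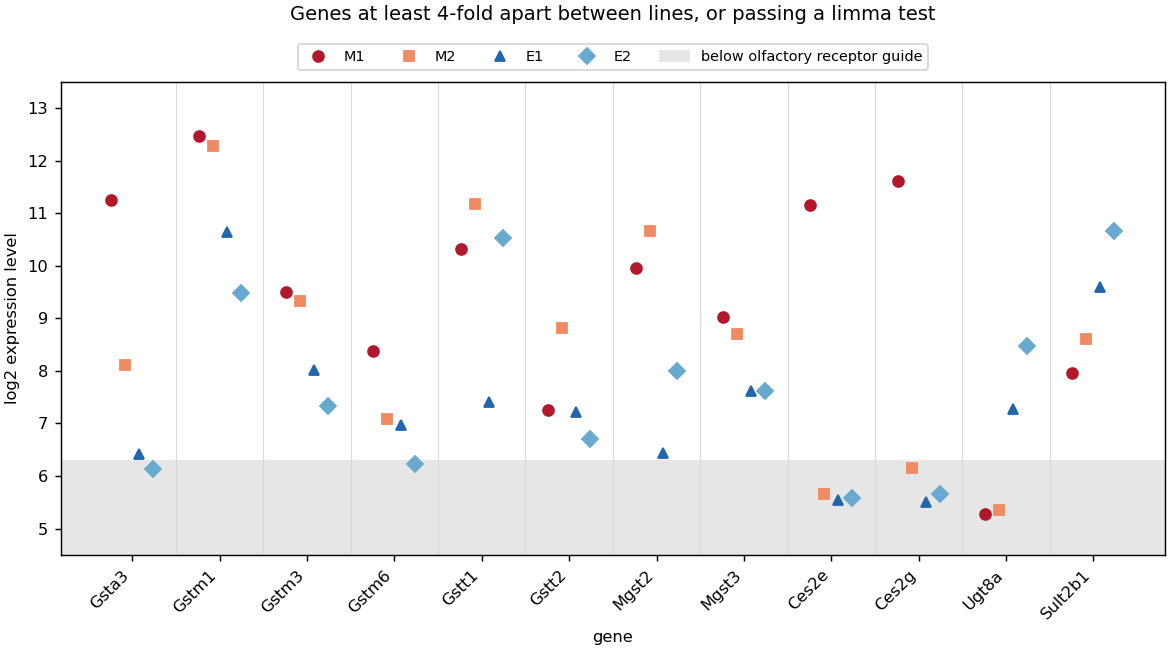
Points give the log2 expression level in each line (1 array per line) for the 11 genes whose highest line is at least 4-fold above the lowest, and for Mgst3, which passed the limma test; the grey band lies under the highest olfactory receptor guide of the 4 arrays (6.28). M1 and M2 are above E1 and E2 for Gsta3, Gstm1, Gstm3, Mgst2 and Mgst3 and, by less, for Gstm6 and Gstt2. Both are below for Ugt8a and Sult2b1, while Ces2e and Ces2g are high in M1 alone.

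Among the carboxylesterases, limma called 0 of 16 genes between the types in either direction, with 2 at an unadjusted p under 0.05, and the large differences belonged to M1 alone. Ces2 enzymes hydrolyse acylglycerols and ester drugs. Ces2e was at 11.16 in M1 and 5.65 in M2, against 5.54 in E1 and 5.58 in E2. Ces2g was at 11.61 in M1 and 6.16 in M2, against 5.50 in E1 and 5.65 in E2. For both genes M1 was the only line above the guide, so only a bound on the fold can be given. With lower levels set to each line's guide, M1 was at least 29.6-fold above M2 for Ces2e and at least 40.4-fold for Ces2g. At least a 10-fold difference of M1 from M2 was found in 2 members, these 2 genes, both higher in M1 (0.256% of all probe sets were higher by that much) and in 0 members lower (0.179% were). Ces2f lies between them on chromosome 8. It was at 7.31 in M1 and 5.62 in M2, against 5.39 in E1 and 5.64 in E2, with M1 again the only line above the guide, at least 2.06-fold above M2. Ces2a, Ces2b, Ces3a, Ces3b and Ces4a, on both sides of these genes, differed by at most 0.41 between any lines.

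With M1 set against M2, E1 and E2, limma called 1 member higher in M1 (0.0854% of all probe sets were called higher) and 0 lower (0.00854% were called lower), with 12 members at an unadjusted p under 0.05 against 1640 of all probe sets. This was Ces2e, with a log2 difference of 5.57 from the listed levels (SE 0.12, limma adjusted p = 0.0338). Ces2g differed by 5.84 (SE 0.32, limma adjusted p = 0.0751) and Ces2f by 1.76 (SE 0.17, limma adjusted p = 0.189). With the other lines set to the guide, M1 was at least 30.3-fold higher for Ces2e, 41.4-fold for Ces2g and 2.11-fold for Ces2f. These bounds were not tested. Ces2g passed with median centring and with trend and robust eBayes. Fits with either floor cannot decide for Ces2e and Ces2g, because M2, E1 and E2 lay under both floors and became equal. Without M2, only E1 and E2 were left to give the spread. The call of Ces2e was lost without E1, without E2 and when only the brighter probe sets were tested. M1 has 1 array, so the test rests on the spread of the 3 other lines, which for these genes is spread under the guide, and the call compares 4 arrays, not replicated lines. This test shares its arrays with that between the types, in which Ces2e had a difference of 2.85 (limma adjusted p = 0.579), or a difference of 5.60 without M2.

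The promoters of the 3 Ces2 genes that were highest in M1 are shown to compare neighbouring genes that were high in the same line. They are from RefSeq on build GRCm38.p6, run 5′ to 3′ on the strand of the gene, and span 250 bases before to 50 after the gene start. Capitals mark the run ACTTTGCCC, the longest that all 3 share on the same strand, a search chosen after the levels were seen. Ces2e lies at chr8:104926010-104926309, Ces2f at chr8:104947106-104947405 and Ces2g at chr8:104961468-104961767, all on the plus strand.
Ces2e: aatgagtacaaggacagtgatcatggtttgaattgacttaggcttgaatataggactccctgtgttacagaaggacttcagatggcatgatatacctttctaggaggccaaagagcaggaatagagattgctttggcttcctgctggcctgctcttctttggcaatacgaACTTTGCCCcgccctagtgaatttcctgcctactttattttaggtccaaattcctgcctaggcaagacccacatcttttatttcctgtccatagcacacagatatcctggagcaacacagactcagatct
Ces2f: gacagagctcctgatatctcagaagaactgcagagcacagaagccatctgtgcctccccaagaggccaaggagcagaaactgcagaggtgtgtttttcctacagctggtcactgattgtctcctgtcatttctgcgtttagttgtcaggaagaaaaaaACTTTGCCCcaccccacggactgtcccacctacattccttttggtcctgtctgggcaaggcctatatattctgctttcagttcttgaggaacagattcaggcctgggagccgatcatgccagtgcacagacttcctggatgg
Ces2g: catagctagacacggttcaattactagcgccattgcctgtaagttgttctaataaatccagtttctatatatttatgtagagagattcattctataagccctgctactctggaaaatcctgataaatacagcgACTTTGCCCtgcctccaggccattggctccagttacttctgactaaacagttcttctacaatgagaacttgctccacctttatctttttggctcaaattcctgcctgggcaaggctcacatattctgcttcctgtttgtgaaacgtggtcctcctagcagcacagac
The run of 9 bases begins 80 bases before the start of Ces2e, 92 before that of Ces2f and 117 before that of Ces2g. On either strand it occurs in 86 of 32851 mouse promoters of this length (0.262%). Among the members it occurs in these 3 and in Ces2a, which was at 3.81 to 4.09 in the 4 lines, so it is not shared only by genes that were high in M1. The best local alignment of Ces2e with Ces2g had 74 identical of 106 positions, and that of Ces2e with Gsta3, a gene of another family, was shorter, with 20 of 26.

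Outside Ces2, M1 was the highest line by a margin in a few further genes. M1 was at least 2-fold above every other line in 7 members, 10.8% against 1.53% of all probe sets. They were Ces2e, Ces2f, Ces2g, Gsta3, Gstm6, Ces1f and Sult1b1. Ces1f was at 6.50 in M1 and 5.31 in M2, against 4.84 in E1 and 4.90 in E2, and Sult1b1 was at 4.83 in M1 and 3.60 in M2, against 3.58 in E1 and 3.46 in E2. Sult1b1 was under the guide in every line, and so were its neighbours Sult1d1, at 4.67 in M1 and 3.83 to 3.91 elsewhere, and Sult1e1, the estrogen sulfotransferase, at 4.32 in M1 and 3.55 to 3.60 elsewhere. Ces1f, Sult1b1, Sult1d1 and Sult1e1 are named here after their values were seen, and none of them passed (limma adjusted p = 0.412, 0.210, 0.359 and 0.369). The other 6 Ces1 genes differed by at most 0.64 between any lines, and Ces1b and Ces5a were the 2 carboxylesterases above the guide in all lines, at 6.26 to 6.72 and 6.58 to 6.704.

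**Figure D4:**
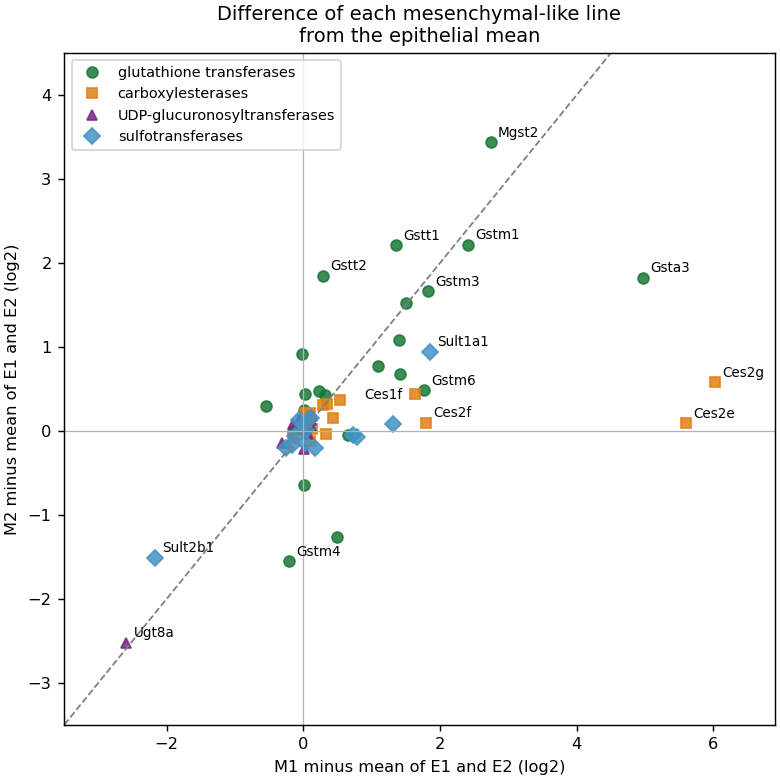
Each point is a member, plotted by how far M1 (horizontal) and M2 (vertical) lie from the epithelial mean, in log2 units; M1 equals M2 along the dashed line. Mgst2, Gstm1, Gstm3, Ugt8a and Sult2b1 lie near the dashed line, whereas Ces2e, Ces2g and Gsta3 lie far to its right, and both axes share the epithelial arrays.

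Most sulfotransferases and UDP-glucuronosyltransferases were at low and even levels. Of the 27 genes of both families, 23 stayed within 2-fold over the 4 lines, and 1 of these 23 was above the guide in any line. The 8 Ugt2 genes, which include steroid and drug glucuronidating enzymes, lay between 3.56 and 5.63, all under the guide. Ugt2b37 was at 5.33 in M1 and 5.11 in M2, against 5.03 in E1 and 5.63 in E2, and Sult5a1 at 6.10 and 6.31 in M1 and M2 against 6.09 and 6.25 in E1 and E2. Sult2a8, Ugt2b38 and Sult2a6 were among the 10 members with the lowest differences between the types, at -0.23, -0.23 and -0.17, and were under the guide in every line. By limma 0 genes of either family passed in either direction, with 2 sulfotransferases and 1 UDP-glucuronosyltransferase at an unadjusted p under 0.05.

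In 3 genes of these families the lines were clearly apart, with different orders between the types. Sult1a1, which sulfates phenols, was at 8.03 in M1 and 7.12 in M2, against 6.11 in E1 and 6.24 in E2. The mesenchymal-like lines were above the guide and the epithelial lines under it, and the log2 difference of 1.40 (SE 0.34) did not pass (limma adjusted p = 0.150). With E1 and E2 set to the guide, M1 and M2 were at least 2.55-fold higher. Without M2 the log2 difference was 1.85. Sult2b1, which sulfates cholesterol, was at 7.96 in M1 and 8.62 in M2, against 9.60 in E1 and 10.65 in E2. It was lower in both mesenchymal-like lines than in either epithelial line, by 1.84 on the log2 scale between the means (SE 0.45, limma adjusted p = 0.151). Ugt8a makes galactosylceramide, a lipid of myelin, and was at 5.28 in M1 and 5.35 in M2, against 7.27 in E1 and 8.48 in E2. M1 and M2 were under the guide and E1 and E2 above it, with a log2 difference of -2.56 (SE 0.44, limma adjusted p = 0.0807). With M1 and M2 set to the guide, E1 and E2 were at least 3.12-fold higher. E2 was at least 2-fold above every other line in both Sult2b1 and Ugt8a.

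Promoters of the members were searched on both strands for the letters of an antioxidant response element, TGACNNNGC, and of a xenobiotic response element, GCGTG, the cores bound by Nrf2 and by the Ahr receptor. The table held 70 promoters of 57 of the 65 genes. The first motif occurred in 4 of them (5.71%, against 12.4% of all 32851 promoters), in Gsta3, Gstm5, Gstm7 and Mgst1. The second occurred in 11 (15.7%, against 32.4%), of 9 genes. Promoters of Gsta3 and Mgst3 are shown, the members with the largest difference between the types and with the call, with the matches in capitals. Gsta3 lies at chr1:21240335-21240634 on the plus strand and Mgst3 at chr1:167393792-167394091 on the minus strand.
Gsta3: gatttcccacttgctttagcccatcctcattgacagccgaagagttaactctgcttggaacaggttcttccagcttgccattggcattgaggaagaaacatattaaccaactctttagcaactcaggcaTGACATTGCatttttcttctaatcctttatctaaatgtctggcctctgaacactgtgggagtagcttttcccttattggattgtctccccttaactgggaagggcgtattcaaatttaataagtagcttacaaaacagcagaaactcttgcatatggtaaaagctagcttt
Mgst3: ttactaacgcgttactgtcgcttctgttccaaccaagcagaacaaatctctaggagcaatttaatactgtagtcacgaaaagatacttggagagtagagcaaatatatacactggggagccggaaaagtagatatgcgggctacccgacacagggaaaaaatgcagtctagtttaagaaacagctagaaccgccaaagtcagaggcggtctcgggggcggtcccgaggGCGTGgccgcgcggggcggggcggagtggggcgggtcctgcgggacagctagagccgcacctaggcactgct
The match in Gsta3 is of the antioxidant motif and begins 121 bases before the gene start, and that in Mgst3 is of the xenobiotic motif and begins 22 bases before it. The other antioxidant matches were TGACCACGC in Gstm5, TGACAAAGC in Gstm7 and GCACGGTCA, read on the other strand, in Mgst1. That of Gstm5 overlaps a match of the xenobiotic motif. Of the 4 genes, Gsta3, Gstm7 and Mgst1 were highest in M1 and Gstm5 in M2. Over all 65 members, M1 was the highest line in 26 (40%) and M2 in 22 (33.8%). Of the 4 genes, 1, Gsta3, had both M1 and M2 at least 2-fold above both epithelial lines, as did 6 of the 65 members. A link of the motif to the levels was not tested.

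The genes that supply and clear the conjugation pathways were described from 8 lists. To set beside their counts, 1.72% of all 23410 probe sets were called higher between the types and 2.02% lower. An unadjusted p under 0.05 by limma was found for 4203. Of 17 genes of glutathione supply and recycling, limma called 0 between the types, with 5 at an unadjusted p under 0.05. Slc7a11, the cystine transporter, was at 12.45 in M1 and 11.93 in M2, against 9.92 in E1 and 10.43 in E2 (log2 difference 2.01, SE 0.28, limma adjusted p = 0.0520). Gclc, the catalytic subunit of the first enzyme of glutathione synthesis, was at 12.46 in M1 and 11.34 in M2, against 10.78 in E1 and 10.39 in E2. Both were higher in M1 and M2 without overlap, and neither passed.

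Of 11 genes that make or move the donors of glucuronate and sulfate, limma called 1 higher in M1 and M2 and 2 lower. Slc35d2, a carrier of nucleotide sugars, was at 8.82 and 8.80 in M1 and M2 against 7.83 and 7.80 in E1 and E2 (limma adjusted p = 0.0266). The sulfate transporter Slc26a2 was at 8.72 and 9.11 in M1 and M2 against 11.34 and 11.23 in E1 and E2 (limma adjusted p = 0.0129). Papss1, which makes the sulfate donor PAPS, was at 9.22 and 8.93 in M1 and M2 against 10.51 and 10.84 in E1 and E2 (limma adjusted p = 0.0358). Papss2, the second PAPS synthase, did not pass and had the other sign, at 7.04 in M1 and 5.29 in M2 against 5.19 and 5.28 in E1 and E2 (limma adjusted p = 0.574).

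Of 10 efflux transporters, limma called 3 higher in M1 and M2 and 0 lower, and the median difference was 2.03 on the log2 scale. The 3 were Abcg2 (log2 difference 2.87, limma adjusted p = 0.0224), Abcb1a (2.64, 0.0153) and Abcc1 (1.57, 0.0364), which exports glutathione conjugates. Abcb1b, a second gene of P-glycoprotein, was at 11.01 in M1 and 10.30 in M2, against 7.19 in E1 and 5.60 in E2 (limma adjusted p = 0.0589). For Abcb1a and Abcb1b, E2 was under the guide, so the size of those differences is uncertain. Abcc4 was at 11.10 and 10.33 in M1 and M2 against 6.83 in E1 and 8.71 in E2. In 6 of the 10 both M1 and M2 were at least 2-fold above both epithelial lines, against 2.75% of all probe sets.

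Other esterases and relatives outside the symbol pattern held the largest called differences around the members. Of 14 other esterases and hydrolases, 2 were higher and 0 lower in M1 and M2. Pon3, a lactonase of the paraoxonase family, was at 11.38 in M1 and 10.79 in M2, against 5.69 in E1 and 5.66 in E2 (log2 difference 5.41, SE 0.23, limma adjusted p = 0.00398), and Esd, which hydrolyses formylglutathione, was also higher (1.46, limma adjusted p = 0.0316). Of 10 relatives, 1 was higher and 0 lower. This was Alox5ap, which belongs to the same membrane protein family as Mgst2 and Mgst3, at 9.19 and 9.30 in M1 and M2 against 5.66 and 6.01 in E1 and E2 (limma adjusted p = 0.0049). Ptges, a prostaglandin synthase of that family, was at 11.81 in M2 alone, with 7.17 in M1 and 6.62 and 6.79 in E1 and E2. For Pon3 and Alox5ap, E1 and E2 were under the guide, so the size of those differences is uncertain. Of 12 other conjugating enzymes limma called 0, with 5 at an unadjusted p under 0.05, among them Ust, at 10.15 and 10.70 in M1 and M2 against 7.56 and 5.52 in E1 and E2.

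Among 17 regulators of these genes, limma called 0 in either direction, with 3 at an unadjusted p under 0.05. Nfe2l2, which encodes Nrf2, was nearly even, at 12.64 and 12.46 in M1 and M2 against 12.21 and 12.31 in E1 and E2. Ahr was at 6.71 in M1 and 8.52 in M2, against 10.09 in E1 and 10.44 in E2 (log2 difference -2.65, SE 0.66, limma adjusted p = 0.154). Of 7 genes widely read as their targets, 0 were higher and 1 was lower in M1 and M2. This was Cyp1b1, at 5.76 and 5.61 in M1 and M2 against 7.55 and 8.10 in E1 and E2 (limma adjusted p = 0.0284). M1 and M2 were under the guide, so the size of the difference is uncertain. Cyp1b1 is a target of the Ahr receptor. Tiparp, another target of that receptor, had the other sign, at 10.83 and 11.46 in M1 and M2 against 9.27 and 9.77 in E1 and E2 (limma adjusted p = 0.0916), and Cyp1a1 was under the guide in all lines, at 5.29 to 5.48. Of the targets of Nrf2, Nqo1 was under the guide in all lines, at 5.16 to 5.37, and Srxn1 was at 10.92 and 11.40 in M1 and M2 against 9.78 and 9.37 in E1 and E2 (limma adjusted p = 0.0647). In the comparison of M1 with M2, E1 and E2, limma called 0 of the 98 genes measured in these 8 lists. An unadjusted p under 0.05 was found for 14 of them, against 1640 of all 23410 probe sets.

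**Figure D5:**
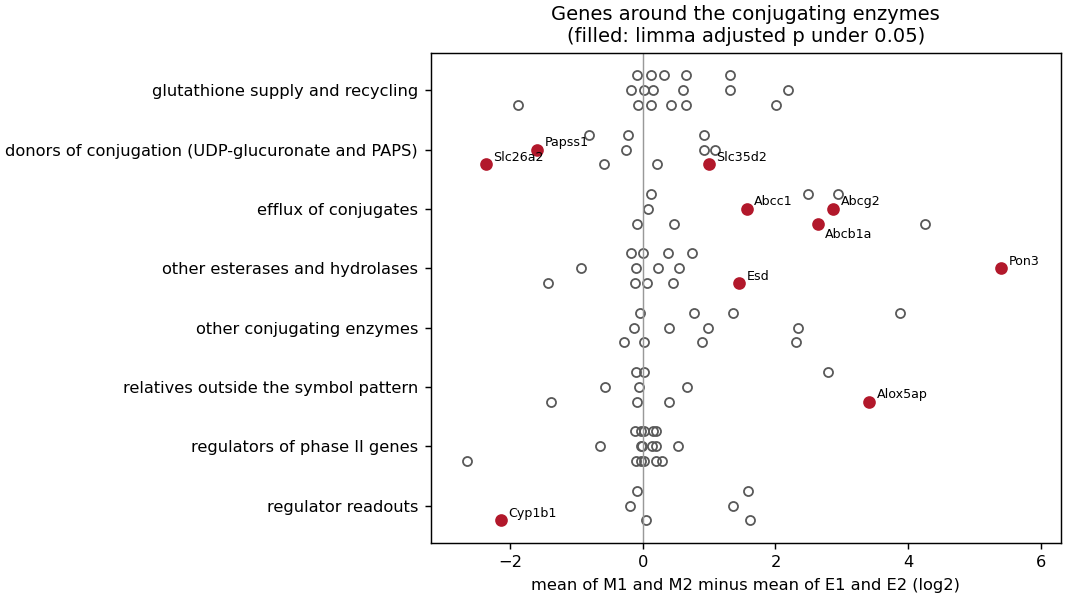
Points are genes of the 8 lists, each placed by its log2 difference, M1 and M2 minus E1 and E2; filled and named points passed limma at an adjusted p under 0.05. The transporters lie mostly to the right, with 3 of 10 called higher (1.72% of all probe sets were), and Pon3 is farthest out at 5.41.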

How the data were processed

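Expression was measured in 4 clonal lines (E1, E2, M1, M2) with 1 Affymetrix MoGene 1.0 ST array each. The deposited values are log2 expression levels that the authors normalized from exported array files. Partek is named in the submitters' processing notes, and background correction, normalization and summarization are not given in the sources used here. Of 35556 probe sets, the 23410 with a gene symbol were tested. A gene with 2 single-symbol probe sets (Gstm3, Ces5a) was read from the one with the higher mean. Symbols of all 65 members matched a later gene table by identifier, and 0 changed.

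Types were compared with limma 3.58.1 (lmFit and eBayes) in R 4.3.3, as M1 and M2 against E1 and E2 and as M1 against M2, E1 and E2, each with 2 residual degrees of freedom. In the second, M1 is assumed to vary like the other lines. P-values were adjusted by Benjamini-Hochberg across the tested probe sets, with a threshold of 0.05. M1 and M2 were also compared at 10-fold without a test. Folds against lines under the olfactory receptor guide are bounds, with each lower level raised to the guide of its line. The scripts were tested on simulated data. Named members are those called, those at least 4-fold apart between lines, the 10 farthest apart between the types in each direction, those with a level of at least 10 in some line and the highest of each family, and up to 4 genes per list. Members and lists were chosen with earlier results of these data known. Clone numbers do not pair the lines (correlation of same-numbered deviations -0.04 over the 23410 probe sets). Alternatives were other scalings, floors, filters, thresholds, probe set rules and variance models, a replicate block and leaving out each line.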

Additional observations from a re-analysis of the deposited data

Results flagged for a closer look

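A probe set left out of the members, because it is shared by 8 symbols of the Ugt1 locus, had a signal that differed between the types. It was at 8.07 in M1 and 8.18 in M2, against 6.25 in E1 and 5.76 in E2, a log2 difference of 2.12 (SE 0.21, limma adjusted p = 0.0233). Which of the 8 genes the signal came from cannot be told from this probe set. It was singled out as a signal outside the members' comparisons, and no single gene of this locus was among the 11 UDP-glucuronosyltransferases described above.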

How the results depend on the processing

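Between the types, 1 member was called by limma. It was also 1 with the brighter probe sets alone, with the mean of a gene's probe sets and with a 2-fold bound. It was 2 with quantile normalization (921 of all probe sets) and 4 at an adjusted p under 0.10 (1660 of all). It was 0 with median centring, with all probe sets of the file tested and with trend and robust eBayes. It was also 0 with a floor at the olfactory receptor level or at the median. A replicate block by clone number gave 0 too (319 of all probe sets, against 874 without it). Leaving out each line gave 0 to 9 members, with 0 without E1 or E2 (8 and 9 members had an unadjusted p under 0.05), 4 if M1 was left out and 9 if M2 was, and 0, 0, 1761 and 1879 of all probe sets. For M1 against the other lines, 1 member was called, and 22 of all probe sets. With the brighter probe sets alone both counts were 0. With median centring 2 members were called (40 of all probe sets), as with trend and robust eBayes (59) and at an adjusted p under 0.10 (56). A floor at the median gave 3 (293 of all), and a floor at the olfactory receptor level gave 5 (249 of all). Without E1 or E2 both counts were 0, where 8 and 10 members had an unadjusted p under 0.05. Without M2 this test is the same fit as that between the types without M2, so it adds nothing. Between M1 and M2, 2 members were at least 10-fold apart under every scaling, floor and probe set rule. At 4-fold there were 3, beside 358 of all 23410 probe sets. With a floor, lines under it become equal, so genes high in M1 alone can pass the M1 test there by construction. With a line left out, fewer arrays gave the spread. The cause of the other changes was not tested.

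Of 60 differences of 30 named genes, 597 alternative values kept direction and side of the threshold, 16 newly passed, 10 no longer passed and 19 reversed. The fit without M2 is the same for both comparisons, so its values are counted under each. The 10 losses all belong to the 2 differences that had passed, Mgst3 between the types (12 alternatives) and Ces2e for M1 (10 alternatives). The other differences had not passed, so keeping their side of the threshold says little. Between the types, Sult5a1 went to -0.011 with median centring and -0.011 with quantile normalization, and Ces5a to -0.009 with the mean of its probe sets. With a line left out, the difference between the types ranged from -0.246 to 0.026 for Ces3a, -0.008 to 0.102 for Ces5a, -0.649 to 0.016 for Gsto1, -0.547 to 0.298 for Gstz1, -1.27 to 0.498 for Mgst1, -0.069 to 0.134 for Sult5a1 and -0.407 to 0.194 for Ugt2b37. That of M1 from the other lines ranged from -0.21 to 0.65 for Gstm4, -0.038 to 0.232 for Gstp1, -0.53 to 1.36 for Gstt1, -0.76 to 0.29 for Gstt2, -0.26 to 0.03 for Gstt3 and -0.032 to 0.269 for Ugt2b37. Members under the olfactory receptor guide have no reliable order between lines.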
